A study of Mus musculus with 8 samples.

Results

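The genes described here are the matrix metalloproteinases (Mmp), the ADAM proteases (Adam), the ADAMTS proteases (Adamts) and the tissue inhibitors of metalloproteinases (Timp) of the mouse, in organoids of mammary tumors with or without the transcription factor SOX4. Members were taken by gene symbol alone, and 73 of 38293 counted gene identifiers matched, with 23 Mmp, 27 Adam, 19 Adamts and 4 Timp genes. RNA was sequenced in bulk from 2 control lines (WT1 and WT3) and 3 SOX4KO lines (H7, M4 and H4), and as single cells from 1 control library (GR17) and 2 SOX4KO libraries (GR18 and GR19). All lines came from tumors of MMTV-PyMT; MMTV-Cre; Ecadherin-mCFP mice, in which the MMTV promoter drives the PyMT oncogene and Cre in mammary epithelium, and the controls carried the same alleles. SOX4 had been disrupted with CRISPR/Cas9, and all lines were grown for 4 days from single cells with FGF2, in matrigel. Each bulk library was a separate organoid line, so the spread between bulk libraries is a spread between lines, and no bulk library repeats a line. The single-cell libraries may come from lines that were also sequenced in bulk, so the assays need not be independent of each other. The age and number of donor mice were not given in the sources used here.

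Metalloproteinases cut proteins outside the cell with a zinc ion in the active site. MMPs degrade collagens and other matrix proteins, ADAM proteases sit in the membrane and release the outer parts of growth factors and receptors, and ADAMTS enzymes are secreted and cut proteoglycans and procollagens. TIMPs bind the active site and block it. In the mammary gland these enzymes act in ductal branching and involution, and in tumors much of their supply is known to come from stromal cells, which organoids largely lack.

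The bulk libraries held between 3050323 and 4678497 reads counted on genes. Those were 34.3% (M4) to 52.2% (WT3) of the reads counted on genes, on no feature or on more than 1 gene. The single-cell libraries held 369, 369 and 362 cells with median UMI counts of 19845 to 21876. A UMI (unique molecular identifier) counts 1 captured molecule. Sox4 transcripts were at 295 and 374 CPM (counts scaled to a common library size) in the control lines and at 199, 179 and 299 in H7, M4 and H4, a log2 difference of -0.57 ± 0.25 (SE) with an adjusted p of 0.277 in edgeR's quasi-likelihood test. An indel made by CRISPR/Cas9 need not remove the transcript, so this level does not check the labels.

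Most of the family was at or near 0 counts in the organoids. In the 5 bulk libraries, 34 members had no read, which allows up to 0.153 CPM over all libraries together. These were 11 Mmp, 16 Adam, 5 Adamts and 2 Timp genes (Timp1 and Timp4), with Mmp7, Mmp9 and Adam19 among them. In single cells 43 members were listed, of which 10 had no bulk read and 15 had fewer than 10 UMIs in all. Adamts2, a procollagen N-proteinase, was the most counted of those 10, with 11, 15 and 21 UMIs. No read or UMI of Timp1 was counted, and in all 24 members had no read or UMI. Of the 39 members with reads, 20 passed the filter on low counts and were tested, comprising 4 Mmp, 4 Adam, 10 Adamts and 2 Timp genes. The other 19 held at most 34 reads over the 5 libraries.

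The level per transcript length was concentrated in a few genes. Per kilobase of exon, Timp2 was highest at 104 CPM, followed by Adam10 (73.8), Timp3 (66.9), Adam9 (29.9), Mmp14 (26.7), Mmp15 (26.1), Adam15 (16.4), Adam17 (15.8), Adamts15 (8.32), Adamts1 (7.37), Adamts3 (3.31) and Mmp11 (2.53). These 12 genes held 97.1% of the summed CPM per kilobase of all members. They comprise Timp2 and Timp3, 4 Adam and 3 Adamts genes, the membrane-type Mmp14 and Mmp15 and the secreted Mmp11.

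Several members are also neighbours in the genome. In the RefSeq gene order of GRCm38.p6, Adamts1 and Adamts5 are adjacent on chromosome 16 and Adamts15 and Adamts8 on chromosome 9, and 10 Mmp genes form an unbroken run on chromosome 9. In the bulk lines Adamts15 was at 22.8 to 169 CPM and Adamts8 at 0.36 to 0.522 CPM. In the single-cell libraries the levels of this pair were near each other, with Adamts15 at 3.89, 4.37 and 3.74 CPM and Adamts8 at 4.67, 2.37 and 3.25 in GR17, GR18 and GR19. From the chromosome 9 run Mmp3, Mmp10 and Mmp13 alone had any bulk read.

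SOX4KO lines were compared with control lines to ask how transcript levels differ without SOX4. Among the 20 tested members 4 were called at an adjusted p under 0.1, against a background of 6.27% of the 11682 genes tested. Adamts1, Adamts15 and Timp3 rose (background for a rise, 4.1%) and Adamts7 fell (background for a fall, 2.17%). All 4 are from the Adamts and Timp genes, which made up 10 and 2 of the 20 tested members. None of the 4 tested Mmp and 4 tested Adam genes was called, which with so few genes is near the background of 6.27%. The median log2 fold change of the tested members was 0.09, beside 0.01 for all tested genes, and the 16 uncalled members had adjusted p values from 0.108 to 0.960. The 3 SOX4KO lines lay on one side of both controls in 9 of the 20 members, 6 above and 3 below, against 36.9% of all tested genes.

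**Figure D1:**
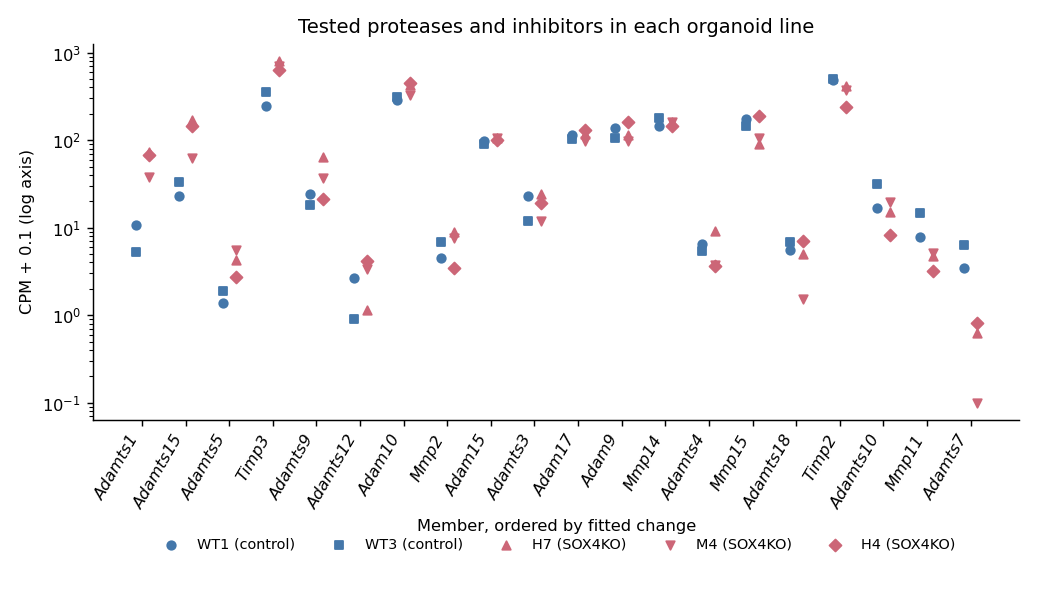
Normalized CPM (log axis, 0.1 added) of the 20 tested members in the 2 control lines (blue) and 3 SOX4KO lines (red), 1 point per line, ordered from the largest fitted rise to the largest fall. The red points stand apart from the blue ones at the called Adamts1, Adamts15 and Timp3 (above) and Adamts7 (below). They also stand apart at the uncalled Adam10, Adam15 and Adamts5 (above) and Mmp11 and Timp2 (below), while Adamts9, Adam9 and Mmp15 overlap.

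The promoters of Adamts1 and Timp3 are shown because these are the called members with an entry in the RefSeq promoter table, which matched 44 members and has neither Adamts15 nor Adamts7. Each sequence is the 250 bases before the annotated start on GRCm38.p6, read in the direction of transcription. Capitals mark matches to ACAANG, a core that SOX proteins bind, searched on both strands. Adamts1 lies at chr16:85803114-85803363 on the minus strand and Timp3 at chr10:86300162-86300411 on the plus strand.
Adamts1: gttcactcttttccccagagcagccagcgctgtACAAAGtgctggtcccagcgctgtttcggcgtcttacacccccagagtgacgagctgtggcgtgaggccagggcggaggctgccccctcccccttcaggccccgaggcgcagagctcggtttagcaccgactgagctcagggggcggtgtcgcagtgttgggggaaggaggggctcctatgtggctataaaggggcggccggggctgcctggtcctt
Timp3: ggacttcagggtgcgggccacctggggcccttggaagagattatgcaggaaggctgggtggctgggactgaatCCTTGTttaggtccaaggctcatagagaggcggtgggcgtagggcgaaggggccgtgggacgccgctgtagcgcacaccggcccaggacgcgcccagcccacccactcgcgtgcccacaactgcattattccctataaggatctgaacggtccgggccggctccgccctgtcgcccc
Each promoter holds 1 match, 217 bases before the start of Adamts1 and, on the reverse strand, 177 bases before that of Timp3. Such a match occurs in 36.3% of all 32851 promoters of this length and in 21 of the 49 member entries, so its presence in these promoters is a description only. Adamts1 also has a TATAAA box near its start. At any position in promoters of this length, TATAAA is found in 12.4%, and the share near the start was not counted.

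Timp3, an inhibitor that stays bound to the matrix and blocks ADAM and ADAMTS enzymes as well as MMPs, was the most highly counted member in the SOX4KO lines. Its level was 246 CPM in WT1 and 351 in WT3, and 802 in H7, 695 in M4 and 629 in H4. No SOX4KO line reached down to the higher control. The log2 fold change was 1.25 ± 0.23 (SE), a 2.37-fold rise with an adjusted p of 0.0320. In the annotation used here, 1733 of the 8144 exon bases of Timp3 are shared with Syn3 on the opposite strand, and whether the counting used strand is not given in the sources used here.

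Timp2, a secreted inhibitor that also takes part in activating the Mmp2 proenzyme on membrane-type MMPs, was measured at 491 and 505 CPM in the control lines and at 417, 377 and 242 in H7, M4 and H4. All SOX4KO lines were below both controls, but the log2 fold change of -0.53 ± 0.24 had an adjusted p of 0.304. Because these values went opposite ways, the ratio of Timp3 to Timp2 was computed per length after the values had been seen. It was 0.240 and 0.332 in the controls and 0.919, 0.884 and 1.24 in H7, M4 and H4. A ratio shows that the inhibitors changed unequally, not which of them changed, and it was not tested.

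Adamts1, a protease that cuts the proteoglycans versican and aggrecan, had the largest rise of any tested member. Its level was 10.6 and 5.18 CPM in the controls and 73.1, 38.2 and 68.3 in H7, M4 and H4. The log2 fold change was 2.95 ± 0.40, or 7.74-fold, with an adjusted p of 0.0131. The lowest SOX4KO line, M4, was still above the higher control.

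Adamts15, a related proteoglycan-cutting enzyme, was at 22.8 and 33.1 CPM in the controls and at 169, 61.9 and 144 in H7, M4 and H4. The log2 fold change was 2.16 ± 0.42, or 4.47-fold, with an adjusted p of 0.0375. M4 was again the lowest of the SOX4KO lines, at a level 2.73 times lower than that of H7.

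Adamts7, known for cutting the cartilage oligomeric matrix protein, was the called member that fell. It had 13 and 31 reads in the controls and 2, 0 and 3 in H7, M4 and H4, or 3.37 and 6.17 CPM against at most 0.718. The fitted log2 fold change was -3.31 ± 0.72, a 9.95-fold fall with an adjusted p of 0.0506. Its call rests on few reads. Its exons share 122 of 6282 bases with Tbc1d2b on the opposite strand.

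These calls rested on having both control lines. Without WT3 no member was called (Adamts1 had an adjusted p of 0.126), and without WT1 only Adamts1 was. In these fits the control group is 1 line, and the spread comes from the SOX4KO lines alone, with the lone control assumed to vary like them. The log2 fold changes kept their sign: without WT3 and without WT1 they were 2.50 and 3.53 for Adamts1, 2.46 and 1.92 for Adamts15, 1.53 and 1.01 for Timp3, and -2.81 and -3.68 for Adamts7. The number of genes called overall fell alike, from 733 to 56 without WT3 and to 130 without WT1. All 4 calls were kept when H7, M4 or H4 was left out. In the same lines the summed CPM of 15 basal epithelial markers was 2936 to 3373 in the controls and 4196 to 8014 in the SOX4KO lines (4 of 11 tested markers rose, and Myh11 was at 0). Much of that gap was Sparc, and without it the sums were 2071 and 2204 in the controls and 2729, 2672 and 2504 in H7, M4 and H4. Of the basal keratins, Krt5 was at 191 and 47.8 CPM in WT1 and WT3 and at 410, 472 and 112 in H7, M4 and H4. Krt14 was at 235 and 240 CPM in the controls and at 107, 601 and 187 in the SOX4KO lines. Krt17 was at 11.6 and 7.97 and at 8.09, 5.76 and 0.239. The sum of 10 cycling markers was 650 to 671 and 298 to 468 (4 of 10 fell). The part of either in the member results was not tested, and in bulk RNA a change in the number of cells of a type cannot be told apart from a change in RNA per cell.

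The remaining tested ADAMTS genes did not pass the test. Adamts5, an aggrecanase and the genomic neighbour of Adamts1, was at 1.29 and 1.79 CPM in the controls and at 4.17, 5.40 and 2.63 in H7, M4 and H4. All SOX4KO lines were above the controls, and the log2 fold change of 1.34 ± 0.53 had an adjusted p of 0.236. Adamts18 varied most within the SOX4KO group, from 1.44 CPM in M4 to 6.95 in H4, which is 4.82-fold, and the controls at 5.44 and 6.77 lay inside that range. Adamts3, a procollagen N-proteinase, was at 23 and 11.7 CPM in the controls and at 24.3, 11.9 and 18.9 in the SOX4KO lines, so that the groups overlapped fully. Adamts9 (log2 fold change 0.95, adjusted p 0.285), Adamts10 (-0.78 and 0.360), Adamts12 (0.76 and 0.663) and Adamts4 (-0.10 and 0.941) also overlapped between the groups. Without H4, Adamts9 was called higher with an adjusted p of 0.0656.

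Mmp11, stromelysin-3, came nearest to a call among the MMPs. Its CPM was 7.77 and 14.5 in the controls and 4.70, 5.04 and 3.11 in H7, M4 and H4. The SOX4KO lines were all below the controls, and the log2 fold change of -1.40 ± 0.40 had an adjusted p of 0.108, so it was not called. Its exons share 155 of 2778 bases with Chchd10 on the opposite strand.

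The membrane-type enzymes Mmp14 and Mmp15, which cut matrix at the cell surface, were the most abundant MMPs per kilobase in bulk. Mmp14 was at 145 and 179 CPM in the controls and at 162, 162 and 146 in the SOX4KO lines, with a log2 fold change of -0.05 ± 0.17 (adjusted p 0.917). Mmp15 was at 177 and 145 CPM in the controls and at 90.5, 105 and 188 in H7, M4 and H4, with a log2 fold change of -0.33 ± 0.30 (adjusted p 0.646). H4 alone was above both controls. Mmp2, a gelatinase, was low in all bulk lines, at 3.35 to 8.87 CPM, while in single cells it was at 19.6 to 28.7 CPM of UMIs and Mmp15 at no more than 3.89.

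None of the tested ADAM sheddases was called. Adam10, which releases Notch and many adhesion molecules, was at 286 and 314 CPM in the controls and at 432, 326 and 453 in H7, M4 and H4. Each SOX4KO line was above the controls, but the log2 fold change of 0.43 ± 0.20 had an adjusted p of 0.320. M4 was close to the controls, and without it Adam10 was called higher with an adjusted p of 0.0966. Adam17, which sheds EGF receptor ligands and tumor necrosis factor, was at 98.3 to 130 CPM in all lines (log2 fold change 0.08 ± 0.18, adjusted p 0.866). Adam9 ranged from 96.5 CPM in M4 to 161 in H4, on either side of the controls at 136 and 107. Adam15 was 90.8 to 107 CPM with SOX4KO lines just above the controls, a log2 fold change of 0.14 ± 0.16 (adjusted p 0.708).

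**Figure D2:**
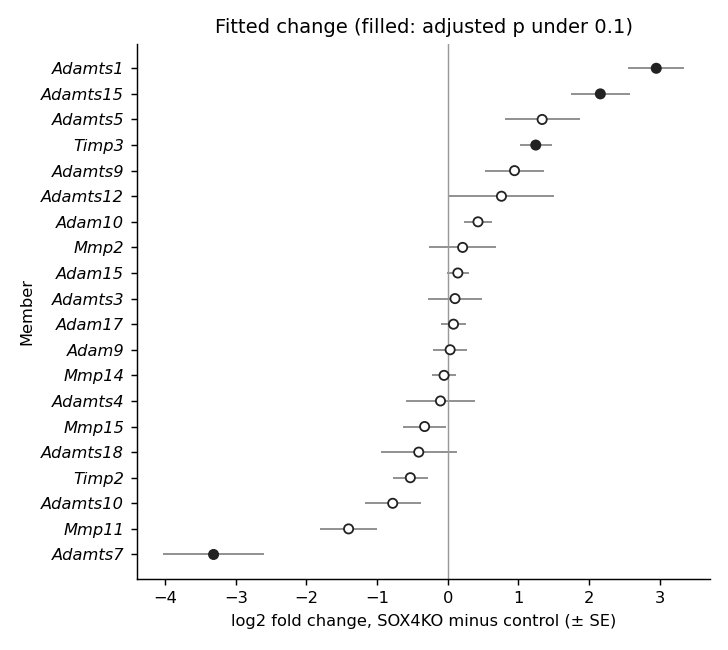
Fitted log2 fold change of SOX4KO over control lines for each of the 20 tested members, with bars of 1 SE, filled where the adjusted p was under 0.1. The filled points are Adamts1 (2.95), Adamts15 (2.16), Timp3 (1.25) and Adamts7 (-3.31), and the Adam genes cluster between 0.03 and 0.43.

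Of the 19 members with reads that were too low to test, 9 had at least 10 reads in all and 5 of these had the SOX4KO lines on one side of the controls, against 27.9% of the 1725 untested genes with as many reads. Mmp28, an MMP of epithelia, had 1 read in each control and 16, 6 and 10 reads in H7, M4 and H4. The ratio of pooled levels was 13.2, with an exact 95% interval of 3.36 to 113 that covers counting error only. Its exons share 466 of 3874 bases with 1700020L24Rik on the opposite strand. Adamts14, a procollagen N-proteinase, had no read in the controls and 8, 3 and 1 in the SOX4KO lines. Against a limit of 3 counts over the control group this is 3.29-fold higher, with the SOX4KO reads taken as exact. Adam11, an ADAM without a working active site, had 7 and 7 reads in the controls and 2, 0 and 0 in H7, M4 and H4, a ratio of 0.118 (0.013 to 0.512). In single cells Adam11 had 10, 2 and 1 UMIs in GR17, GR18 and GR19. Adamts14 had 3, 0 and 1 UMIs there, against its bulk direction, and Mmp28 had 0, 1 and 2, both too few to compare. Mmp3 and Mmp13 are described with the single cells below.

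Other genes that work with these enzymes were counted in 4 lists, which are read against the same background of 6.27% and which hold genes chosen with earlier results of these data known. Of 28 tested proteases and protease inhibitors outside the family, 7 rose and 1 fell, with a median log2 fold change of 0.42 over the list. Serpinf1, a serpin without inhibitory activity, was at 10.9 and 9.36 CPM in the controls and at 599, 464 and 340 in H7, M4 and H4 (log2 fold change 5.53 ± 0.33, adjusted p 0.00118). Cst3, an inhibitor of cysteine cathepsins, was at 1689 and 996 CPM and at 8620, 14938 and 7892 (2.97 ± 0.40, adjusted p 0.0131). A2m, a broad protease trap, was at 1.55 and 0 CPM in the controls and at 65.5, 37.4 and 21.3 (5.85 ± 0.84, adjusted p 0.0146). The serine protease Tmprss2 rose too (3.54 ± 0.55, adjusted p 0.0200), as did Lgmn, Ctsb and Prss23, and Prss8 fell. The risers thus include both proteases and inhibitors.

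Of 32 tested regulators and binding partners of these enzymes, 7 rose and 1 fell, with a median log2 fold change of 0.40. Lrp1, the endocytic receptor that clears MMP and TIMP complexes, rose from 54.9 and 36.4 CPM to 149, 112 and 89.1 (log2 fold change 1.36 ± 0.28, adjusted p 0.0418). Pcsk5, a proprotein convertase, rose by 1.86 ± 0.34 (adjusted p 0.0320), and Adamtsl4, an ADAMTS-like protein without a protease domain, by 1.84 ± 0.32 (adjusted p 0.0276). Thbs2, Sparc, Adamtsl5 and Papln also rose, and the convertase Pcsk7 fell.

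Of 32 tested ligands and receptors that ADAM proteases shed, 7 rose and 1 fell, with a median of 0.35. Tgfa, an EGF receptor ligand, was at 14.8 and 17.5 CPM in the controls and at 47, 32 and 46 in the SOX4KO lines (1.37 ± 0.24, adjusted p 0.0298). Btc, another ligand of that receptor, was at 11.1 and 8.76 CPM and at 2.09, 1.80 and 2.87 (-2.10 ± 0.38, adjusted p 0.0320). The receptor tyrosine kinase Axl rose by 1.62 ± 0.30 (adjusted p 0.0325). The other called genes, Tnfrsf1b, Jag2, Nrg1, Cxcl16 and Sdc1, were all higher in the SOX4KO lines.

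Of 16 tested matrix proteins that these enzymes cut, 6 rose and 2 fell, with a median of 0.76. Col18a1, a basement membrane collagen, was at 348 and 198 CPM in the controls and at 1578, 1013 and 1427 in H7, M4 and H4 (2.29 ± 0.32, adjusted p 0.0136). Spp1, osteopontin, rose by 4.28 ± 0.76 (adjusted p 0.0298) and Matn2 by 3.40 ± 0.50 (adjusted p 0.0158), and Hspg2, Fbln2 and Lama3 were called higher as well. Ltbp1, which stores latent TGF-beta in the matrix, fell by 1.25 on the log2 scale (adjusted p 0.0131). Vcan, or versican, the proteoglycan cut by Adamts1 and Adamts15, was at 24.6 and 62.7 CPM in the controls and at 5.48, 18.7 and 7.66 in the SOX4KO lines (-2.10 ± 0.52, adjusted p 0.0748). The lists were described by counts only, and no enrichment was tested. In all 32 genes of the 4 lists were called, and the count was 11 without WT1 and 2 without WT3, and Serpinf1 and Tmprss2 were called with each line left out.

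Each single-cell library was 1 plate with a cell per well, and UMIs were summed over the cells of each library. With 1 control library no p could be computed, and intervals below are exact 95% intervals that cover counting error only. Of the 8 members with at least 20 CPM on average, 0 were at least 2-fold apart from GR17 in the same direction in both SOX4KO libraries, against 2.24% of 6303 genes at that level. Counting intervals lay apart from that of GR17 on the same side in both SOX4KO libraries for 7 of the 43 listed members, with Adam9 and Adam10 above GR17 and Timp2, Mmp3, Mmp13, Adamts4 and Adamts7 below it. The share over the 15140 genes with a UMI was 18.9%, and with at least 20 UMIs it was 6 of 23 members against 24.9% of 11436 genes, so the members' shares were near the background. By the exact intervals of the ratio, Adam11 (0.193, 0.0205 to 0.904, in GR18 and 0.0930, 0.00214 to 0.654, in GR19) and Mmp15 (0.385, 0.180 to 0.775, and 0.465, 0.232 to 0.892) were also below GR17 in both.

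The 3 members that rose in bulk did not stand apart in the single-cell sums. Adamts1 was at 167 CPM in GR17, 188 in GR18 and 173 in GR19, so that GR18 was 1.13 times GR17 (1.04 to 1.21) and GR19 1.03 times (0.957 to 1.11). Timp3 was at 81, 109 and 71.5 CPM, above the control in GR18 and below it in GR19. Adamts15 had 30, 35 and 31 UMIs, or 3.89, 4.37 and 3.74 CPM. Beside the bulk controls, GR17 was higher for Adamts1 (10.6 and 5.18 CPM of reads in bulk). It was lower for Adamts15 (22.8 and 33.1) and Timp3 (246 and 351). The difference between the assays was not tested for these genes. Of all bulk-called genes with at least 20 CPM in single cells, 220 of 344 (64%) had the bulk direction in both SOX4KO libraries, beside 2852 of 5579 uncalled genes (51.1%). Both libraries are set against the same control library, so their directions are not independent.

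The UMIs of Adamts1 and Timp3 were unevenly spread over cells. The tenth of cells with the most UMIs held 42.2% of the Adamts1 UMIs in GR17 and 54.4% and 48.9% in GR18 and GR19, with up to 77 UMIs in a single cell of GR18. For Timp3 these shares were 44.8%, 53.2% and 57.2%. For Adam10, which had a similar number of UMIs, they were 30.01%, 25.2% and 25.8%, so the sheddase was spread more evenly.

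Adamts7 had 11 UMIs in GR17 and 0 in both GR18 and GR19. With 3 counts set as the limit over both SOX4KO libraries, the level was 7.75-fold lower in SOX4KO cells. The 11 UMIs of GR17 were taken as exact there, so the true difference may be smaller. Bulk and single cells thus had the same direction for this gene. Adamts1 was also above GR17 in both SOX4KO libraries, but in GR19 by less than counting error.

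Timp2 was at 42.5 CPM in GR17, 27.3 in GR18 and 15.2 in GR19. GR18 was 0.643 times GR17 (0.539 to 0.765) and GR19 0.357 times (0.288 to 0.440), so both SOX4KO libraries were below the control, as all 3 SOX4KO lines were in bulk. The ratio of Timp3 to Timp2 UMIs was 1.91 (1.66 to 2.18) in GR17, 3.98 (3.43 to 4.63) in GR18 and 4.71 (3.88 to 5.75) in GR19. It was highest in the SOX4KO libraries of both assays, though in GR19 the Timp3 level itself was below that of GR17.

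The sheddase Adam10 was at 89.8 CPM in GR17, 144 in GR18 and 133 in GR19, ratios of 1.61 (1.46 to 1.77) and 1.48 (1.35 to 1.63). Adam9 was at 17.9, 27.5 and 35 CPM, ratios of 1.54 (1.24 to 1.91) and 1.95 (1.59 to 2.41). Neither was called in bulk, where Adam10 was higher in every SOX4KO line and Adam9 was not. Mmp14, at 31.9, 36.8 and 35.1 CPM, and Mmp2, at 25.5, 28.7 and 19.6, had no shared direction beyond counting error, and Adam17 was above the control in GR18 alone (1.32, 1.13 to 1.54).

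**Figure D3:**
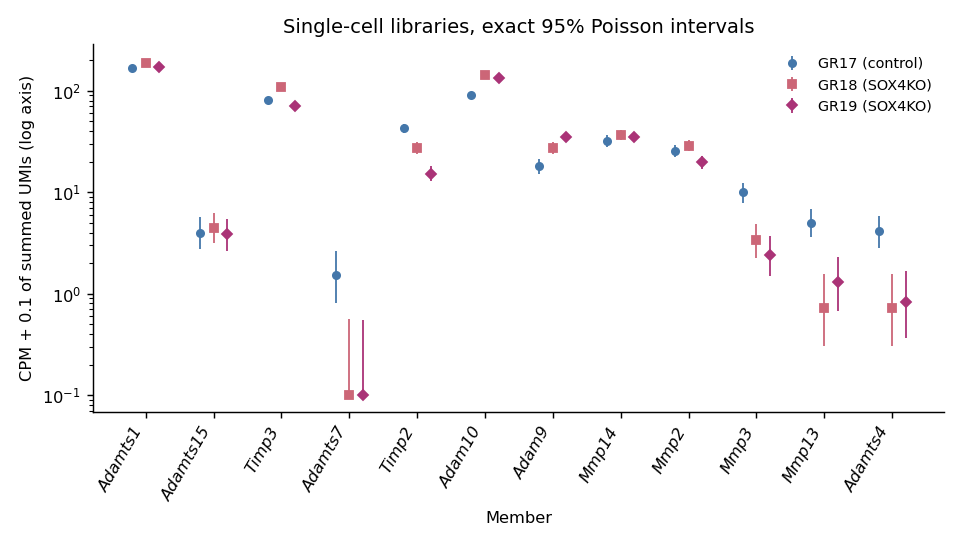
Summed CPM (log axis, 0.1 added) of 12 members in the control library GR17 (blue) and the SOX4KO libraries GR18 and GR19 (red and purple), with exact 95% Poisson intervals. Adamts1 and Adamts15 lie level in all 3 libraries, Adam10 and Adam9 lie higher in both SOX4KO libraries, and Timp2, Mmp3, Mmp13, Adamts4 and Adamts7 lie lower.

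The stromelysin Mmp3 and the collagenase Mmp13 were low in single cells, and both were higher in the control library. Mmp3 had 76 UMIs in GR17, 26 in GR18 and 19 in GR19, ratios of 0.329 (0.203 to 0.520) and 0.232 (0.133 to 0.388). Mmp13 had 38, 5 and 10 UMIs, ratios of 0.127 (0.0389 to 0.322) and 0.245 (0.109 to 0.50). In bulk both lay the other way at a few reads: Mmp3 had 0 and 1 reads in the controls and 2, 2 and 8 in H7, M4 and H4, and Mmp13 had 0 and 2 against 5, 4 and 4. In GR17 the UMIs came from few cells, 24 for Mmp3 and 16 for Mmp13, and 4 cells held both. The most in 1 cell of GR17 was 19 UMIs of Mmp3 and 10 of Mmp13, and the intervals do not cover such a spread between cells. Of the 76 Mmp3 UMIs of GR17, 33 were in cluster F and 28 in the luminal-like cluster D described below, and of the 38 Mmp13 UMIs 22 and 12. In GR18 and GR19, cluster D held 4 and 0 UMIs of Mmp3 and 1 and 1 of Mmp13, and cluster F held 0 of both genes. Cluster F held 105 cells of GR17 but 8 of GR18 and 7 of GR19, and cluster D 36, 45 and 76. The part of these cell numbers in the result was not tested. Adamts4, an aggrecanase, had 31 UMIs in GR17 and 5 and 6 in the SOX4KO libraries, ratios of 0.155 (0.0472 to 0.403) and 0.180 (0.0614 to 0.438).

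Mmp3 and Mmp13 belong to the run of Mmp genes on chromosome 9, and the 100 bases before their starts are shown for what they share. Capitals mark TATAAA and TGANTCA, a pattern that reads alike on both strands and is looser than the AP-1 motif, TGACTCA or TGAGTCA. Both sites shown are of the strict form, while the shares given below are of the looser pattern. The build is as above, with Mmp3 at chr9:7445722-7445821 and Mmp13 at chr9:7272414-7272513, both on the plus strand.
Mmp3: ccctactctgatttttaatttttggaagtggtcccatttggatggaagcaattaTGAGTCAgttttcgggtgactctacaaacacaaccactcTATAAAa
Mmp13: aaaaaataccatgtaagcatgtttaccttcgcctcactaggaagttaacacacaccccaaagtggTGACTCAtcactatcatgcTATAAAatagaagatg
The AP-1 motif begins 46 bases before the start in Mmp3 and 35 before in Mmp13. In the 250 bases before the start, TGANTCA is found in 6.75% of all promoters, in 12 of the 49 member entries, in 8 of the 12 Mmp entries on chromosome 9 and in 0 of the 9 Mmp entries elsewhere. None of the 13 entries of tested members holds it. These are matches of letters in a fixed window, and no binding was measured.

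**Figure D4:**
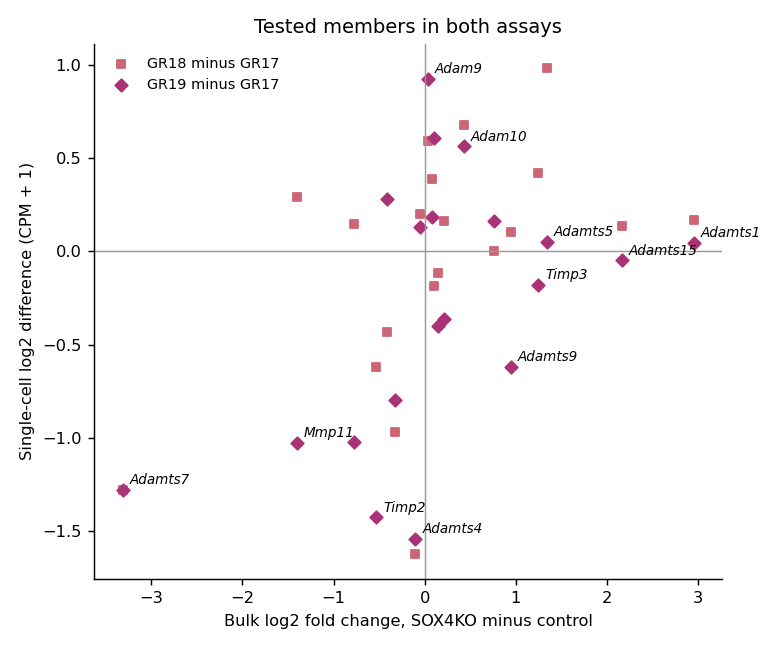
Tested members in both assays, with the bulk log2 fold change on the x axis and the single-cell log2 difference (1 CPM added) of each SOX4KO library from GR17 on the y axis. Adamts1 and Adamts15 lie far to the right and near 0 on the y axis, and Adamts7 lies low on both axes.

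Cells were clustered without the 73 members so that the clusters could be used to place them. Of 7 clusters, B, C and G had higher basal than luminal markers and are called basal-like, with mitotic genes such as Aspm leading G, and D and E are called luminal-like. A, with 9, 107 and 96 cells of GR17, GR18 and GR19, was left unnamed although its basal markers led by more than 1 on the log2 scale. Its top gene, Postn, is on the fibroblast list and no basal marker is among its top 10. C and G have no basal marker in their top 10 either, but no fibroblast marker, so Postn alone set A apart. F, led by Ly6d, was left unnamed because neither class of markers led by 1. Basal-like cells were all of cluster B in GR17 (205 cells) and, but for 4 cells, of clusters C and G in GR18 and GR19 (146 and 128 basal-like cells), so different clusters stand for the class in the control and SOX4KO libraries. Luminal-like cells numbered 50, 108 and 131. The median of the cycling markers was 0.96, 0.74 and 1.25 in B, C and G, 0.86 in D, -1.49 in E and -1.65 in A. The luminal-like class thus held a cluster low in cycling markers and the basal-like class did not. The part of this in the comparison of classes was not tested. Levels were compared within each library, for 13 members with at least 5 CPM.

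Of the 13 members, 3 (Mmp14, Adamts9 and Adamts10) were higher in basal-like than in luminal-like cells in each library, against 31.3% of 9472 genes. Another 4 (Adam9, Adam15, Adam17 and Timp3) were lower in each, against 20.8%. The same order of CPM in every library was enough for this, and with so few members these counts were near the background. Mmp14 was at 31.9, 44 and 40.9 CPM in basal-like cells of GR17, GR18 and GR19 and at 27.1, 21.8 and 23.9 in luminal-like cells, with counting intervals apart in both SOX4KO libraries. Adamts9, which cuts versican, was at 18.1, 21 and 12.2 CPM and at 6.57, 7.66 and 6.20, with intervals apart in GR17 and GR18. For Adamts10 the intervals overlapped in every library.

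Timp3 was at 81.7, 76.7 and 49.4 CPM in basal-like cells and at 105, 170 and 91 in luminal-like cells, with intervals apart in both SOX4KO libraries. Adam9 was at 14.5, 25 and 24 CPM and at 32, 32.9 and 46.5, with intervals apart in GR17 and GR19. Adam15 had intervals apart in GR18 alone and Adam17 in none. Adamts1 had no shared direction: in GR17 it was higher in basal-like cells (207 against 122 CPM), and in GR18 and GR19 the classes were alike within counting error (192 against 217 and 175 against 180).

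These orders depend on the clustering. With a resolution of 0.3, or without wells of over 2 times the median UMI count, no cluster with GR17 cells could be called basal-like, and with 20 principal components GR19 had none, so the comparison could not be made. With the members kept in the clustering, Mmp14, Adamts9, Adamts10 and Mmp3 were higher and Adam9, Adam15, Adamts5 and Timp3 lower. The counts were 3 and 4 again when cluster A was counted as basal-like.

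**Figure D5:**
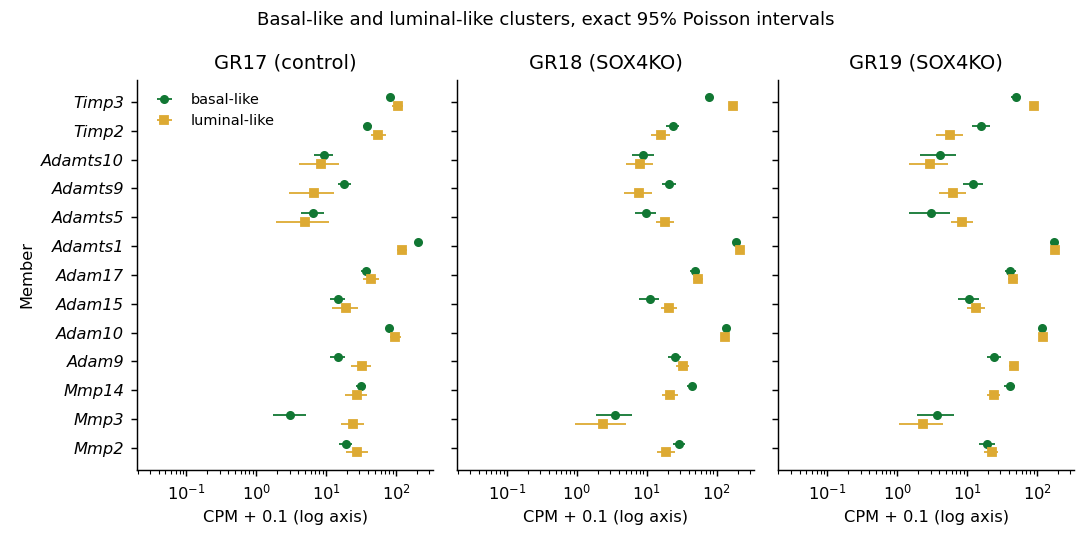
CPM (log axis, 0.1 added) of 13 members in basal-like (green) and luminal-like (yellow) cells of each single-cell library, with exact 95% Poisson intervals. Timp3 and Adam9 lie further right in luminal-like cells of every library, Mmp14 and Adamts9 in basal-like cells, and Mmp3 is far to the right in luminal-like cells of GR17 alone.

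Markers of stromal and blood cells were checked because those cells are usual sources of these enzymes. In bulk, 4 of 8 endothelial markers were at 0 (Cdh5, Kdr, Emcn and Plvap) and their sum was 1.29 to 3.96 CPM in any line. Among the immune markers, Adgre1, Itgam, C1qa, Cd3e and S100a9 were at 0, and nearly all of the list's sum was Cd14, which is on the luminal list too. Without Cd14 the immune sums were 2.33 and 2.59 CPM in the controls and 14.4, 5.76 and 2.39 in H7, M4 and H4. Of 12 fibroblast markers 9 had reads, with Thy1, Fap and Dpt at 0, and 1 of 5 tested fell. Most of the sum was Postn, at 4337 and 1667 CPM in the controls and at 4444, 4786 and 1500 in the SOX4KO lines. Without Postn the fibroblast sums were 317 and 203 in the controls and 142, 131 and 139 in H7, M4 and H4, all below both controls. All 20 luminal markers had reads, and 1 of 17 tested rose. Their sum without Csn3, which was at 2287 CPM in H4 and at 165 to 741 in the other lines, was 3570 and 3626 in the controls and 2375, 2863 and 3438 in the SOX4KO lines, again all below. The part of these cells in the member results was not tested.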

How the data were processed

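RNA from 2 control and 3 SOX4KO organoid lines was sequenced in bulk with a directional kit, and cells of 1 control and 2 SOX4KO lines were sequenced in plates with UMIs. The authors deposited whole-number read counts per Ensembl gene, made with STAR 2.4.2a and HTSeq per the labels' processing notes, and UMI counts per gene and well, both without normalization. The notes name mm9 (NCBIM37), and the strand setting of the counting is not given in the sources used here. Rows of unassigned reads and spike-ins were left out. Symbols and exon lengths came from GENCODE on GRCm38, and promoters from RefSeq on GRCm38.p6.

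Bulk counts were filtered (filterByExpr), normalized (TMM) and fitted over all 5 libraries in edgeR 4.0.16 (glmQLFit and glmQLFTest), with two-sided p values adjusted by Benjamini-Hochberg over all 11682 genes tested and called under 0.1. The SE is the absolute log2 fold change divided by the square root of F. Wells with at least 1000 UMIs were kept and summed per library, with exact 95% Poisson intervals for CPM and conditional exact intervals for ratios. Where a group had no count, 3 counts were set as its limit and the count of the other group was taken as exact. Log2 differences have 1 CPM added. Cells were clustered without the members in Seurat 5.3.0 (2000 variable genes, 10 principal components, 20 neighbours, resolution 0.5). A class was named where its markers led by a median of over 1 on the log2 scale, a margin set after seeing the data, and where the cluster's 10 leading genes held at least as many of its markers as of the other class and of fibroblasts. Doublets were handled only by an alternative without wells of over 2 times the median UMI count. Scripts were tested on simulated data.

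Named were called members, the Timp genes, the 12 highest per kilobase, members with SOX4KO lines on one side at a log2 change of at least 1 or with a wide spread among SOX4KO lines, and members past 2-fold in both SOX4KO single-cell libraries. Members named for a result of an alternative or of the classes were chosen after their values were seen. Members and lists were chosen with earlier results of these data known. Replicates are lines, and the labels give no batch or date.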

Additional observations from a re-analysis of the deposited data

Results flagged for a closer look

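Mmp3 and Mmp13 went opposite ways in the bulk lines and the single-cell libraries, and this difference between assays was not tested. For Mmp3 the SOX4KO to control ratio was 9.88 in bulk, from 1 control read, and 0.329 in GR18 and 0.232 in GR19 against GR17. For Mmp13 it was 5.35 in bulk, from 2 control reads, and 0.127 in GR18 and 0.245 in GR19.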

How the results depend on the processing

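The counts of called members were 3 higher and 1 lower. DESeq2 called 2 lower (Mmp11 was added), and a filter of at least 1 CPM in 2 libraries gave 4 higher (Mmp28 was added). No filter on low counts gave 6 higher and 3 lower, adding Mmp28, Adamts9 and Adamts14 above and Mmp11 and Adamts10 below. That unfiltered edgeR fit also gave adjusted p values of 6.04e-23 for Adamts1 and 1.62e-16 for Adamts15, beside 0.0131 and 0.0375 in the main fit. An adjusted p under 0.05 left 3 higher and 0 lower. Leaving out each line in turn gave 0 to 4 higher and 0 to 1 lower. Of the genes in the related lists 32 were called, 51 without the filter, 17 at an adjusted p under 0.05, and 2 (without WT3) to 34 with a line left out. Of 180 refitted fold changes of tested members 11 changed sign, all of uncalled members with a line left out, where the log2 fold change ranged from -0.10 to 0.57 for Mmp2, -0.19 to 0.11 for Mmp14, -0.20 to 0.22 for Adam9, -0.0075 to 0.18 for Adam17, -0.32 to 0.65 for Adamts3 and -0.71 to 0.15 for Adamts4. The count of members past 2-fold in single cells was 0, and with either SOX4KO library left out 0 to 1 (Timp2, in GR19). No paired analysis was possible because the labels give no replicate number that lines share. With 2 control lines the spread among controls is poorly known, and members under about 10 reads or UMIs cannot be compared at this depth.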
